A study of Homo sapiens with 18 samples.

Results

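The BCL2 family genes described here are 10 regulators of mitochondrial apoptosis: BCL2, BCL2L1, BCL2L2, MCL1, BAK1, BID, BIK, BCL2L11, PMAIP1 and BMF. They were chosen by gene symbol, as every transcript cluster of the array whose annotation names one of them. All 10 were found, each with 1 transcript cluster, among 18418 annotated genes. The BCL2L2 cluster also names BCL2L2-PABPN1, a readthrough transcript, so its signal cannot be assigned to BCL2L2 alone.

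The androgen-responsive human prostate cancer cell lines LNCaP and VCaP were profiled on 18 expression arrays, from total RNA. The siRNA was a control (siControl), one that targets the antisense RNA CTBP1-AS of the CTBP1 locus (siCTBP1-AS), or one that targets PSF, the SFPQ gene's RNA-binding protein (siPSF). All cells, controls included, were kept in serum treated with charcoal and dextran, at 2.5% for LNCaP and 5% for VCaP. They were transfected 48 h before ethanol vehicle or R1881, a synthetic androgen, was given. How long R1881 was given is not stated in the labels, so an equal time in all sets is not known. The study asked how androgen-dependent expression changed after either knockdown.

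The arrays fell into 4 sets by the array names and doses in the labels. In LNCaP, siCTBP1-AS was compared with siControl in set 1, where R1881 was 10 nM, and again in set 2, where it was 1 nM. Set 3 compared siPSF with siControl in LNCaP at 10 nM. Set 4, called the VCaP set, had both knockdowns beside siControl, with R1881 at 1 nM. Each siRNA and treatment had 1 array in a set, which gave 4, 4, 4 and 6 arrays and, in LNCaP siControl, 3 arrays per treatment. The siCTBP1-AS of set 2 and of VCaP, and the siControl of set 2, carry the mark "#2" in the labels, which do not explain it. All VCaP arrays are in set 4, so a line difference is also one of array set and, in part, of R1881 dose. For siCTBP1-AS it is in part one of the "#2" mark as well. Separate cultures are not stated in the labels, so a p-value here reflects how far these arrays spread, and that spread may be technical. Values are log2 signals made with RMA, a method that summarises the probes of a gene. The median signal of an array lay at 6.69 to 6.71 (set 1), 5.73 to 5.75 (set 2), 6.75 to 6.85 (set 3) or 6.22 to 6.28 (VCaP), so signals were compared within a set only. The number of arrays limits the precision of every comparison.

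The labels were checked on marker genes. The luminal keratin KRT8 stood at 11.34 to 13.42 in LNCaP and at 11.41 to 12.6 in VCaP, ETV1 at 8.71 to 11.79 in LNCaP against 3.36 to 3.65 in VCaP, and ERG at 9.01 to 12.11 in VCaP against 3.91 to 5.03 in LNCaP. Mean signals of marker lists were 10.62 to 12.4 for 6 luminal genes, 4.27 to 6.11 for 3 basal, 4.73 to 6.29 for 5 fibroblast, 4.41 to 6.55 for 5 leukocyte and 3.64 to 5.38 for 4 endothelial genes. Single markers of other cell types were higher, with the leukocyte gene CD68 at 7.56 to 10.65 in LNCaP, LYZ at up to 7.44 there, and the fibroblast genes LUM at up to 10.1 in VCaP and COL1A1 at up to 8.1 in LNCaP, while PTPRC was at most 3.8. SFPQ fell by 1.18 (SE 0.13, adjusted p = 0.000515 by limma) with siPSF, in LNCaP by 0.79 (adjusted p = 0.0147) and in VCaP by 1.44 (adjusted p = 0.000337). The level of CTBP1-AS was not analysed here, which leaves siCTBP1-AS unchecked on its own target.

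Proteins of the BCL2 family decide whether the outer mitochondrial membrane is opened, the step that releases cytochrome c and starts caspase activation. BCL2, BCL2L1 (BCL-XL), BCL2L2 (BCL-W) and MCL1 prevent it, BAK1 forms the pore, and the BH3-only proteins BID, BIK, BCL2L11 (BIM), PMAIP1 (NOXA) and BMF promote it by binding the other members. In prostate cancer cells androgen acts as a survival and growth signal, and many BH3-only genes are known as stress-responsive at the transcript level.

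The sequences upstream of PMAIP1 and BCL2L1 are shown because the results below turn on these genes, PMAIP1 for knockdown and BCL2L1 for R1881. RefSeq windows of GRCh38.p14 were matched by symbol for 7 of the 10 members, at 13 start sites. Each sequence covers the 250 bases before the start site, written 5′ to 3′ on the gene's strand. Capitals mark matches to any of 6 motifs searched on both strands: the core of the interferon-stimulated response element (a spaced repeat of GAAA), TGATGNAA (C/EBP-ATF element), GTAAACA (forkhead), the full androgen response element, TGACGT (cyclic AMP response element core) and GGGCGG (GC box). No match of one motif overlapped a match of another.
PMAIP1, chr18:59899746-59899995, plus strand: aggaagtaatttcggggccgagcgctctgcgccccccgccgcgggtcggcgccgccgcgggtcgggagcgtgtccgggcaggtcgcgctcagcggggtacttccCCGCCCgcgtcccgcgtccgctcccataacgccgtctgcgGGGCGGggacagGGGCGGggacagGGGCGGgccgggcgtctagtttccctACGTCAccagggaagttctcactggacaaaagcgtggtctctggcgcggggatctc
BCL2L1, chr20:31723964-31724213, minus strand: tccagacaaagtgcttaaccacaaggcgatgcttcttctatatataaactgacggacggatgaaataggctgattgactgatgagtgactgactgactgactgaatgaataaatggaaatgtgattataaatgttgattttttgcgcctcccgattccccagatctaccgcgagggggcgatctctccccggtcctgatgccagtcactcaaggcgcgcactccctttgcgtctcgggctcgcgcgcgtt
BCL2L1, chr20:31722869-31723118, minus strand: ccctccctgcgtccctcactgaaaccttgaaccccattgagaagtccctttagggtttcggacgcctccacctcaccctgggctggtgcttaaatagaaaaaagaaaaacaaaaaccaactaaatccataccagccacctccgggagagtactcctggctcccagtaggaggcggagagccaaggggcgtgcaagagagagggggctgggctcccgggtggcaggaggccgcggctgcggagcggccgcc

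The PMAIP1 window held 4 GC boxes and 1 TGACGT, the latter read on the minus strand at bases -56 to -51 from the start. Neither BCL2L1 window held a match. Over all 35116 windows of this length, 42.64% held GGGCGG, 7.1% TGACGT, 3.14% TGATGNAA, 3.02% the interferon core, 2.98% GTAAACA, and 1 window held the androgen response element. Among the 13 member windows 8 held GGGCGG, 1 held TGACGT and 1, that of BCL2L11, held GTAAACA at bases -223 to -217. The 8 windows with GGGCGG belong to BAK1, BCL2L11, BID, BMF and PMAIP1. Windows of BID overlap and share GC boxes, so the 8 are not separate counts. None of the 13 held the other 3 motifs. A match of letters is not evidence of binding.

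**Figure D1:**
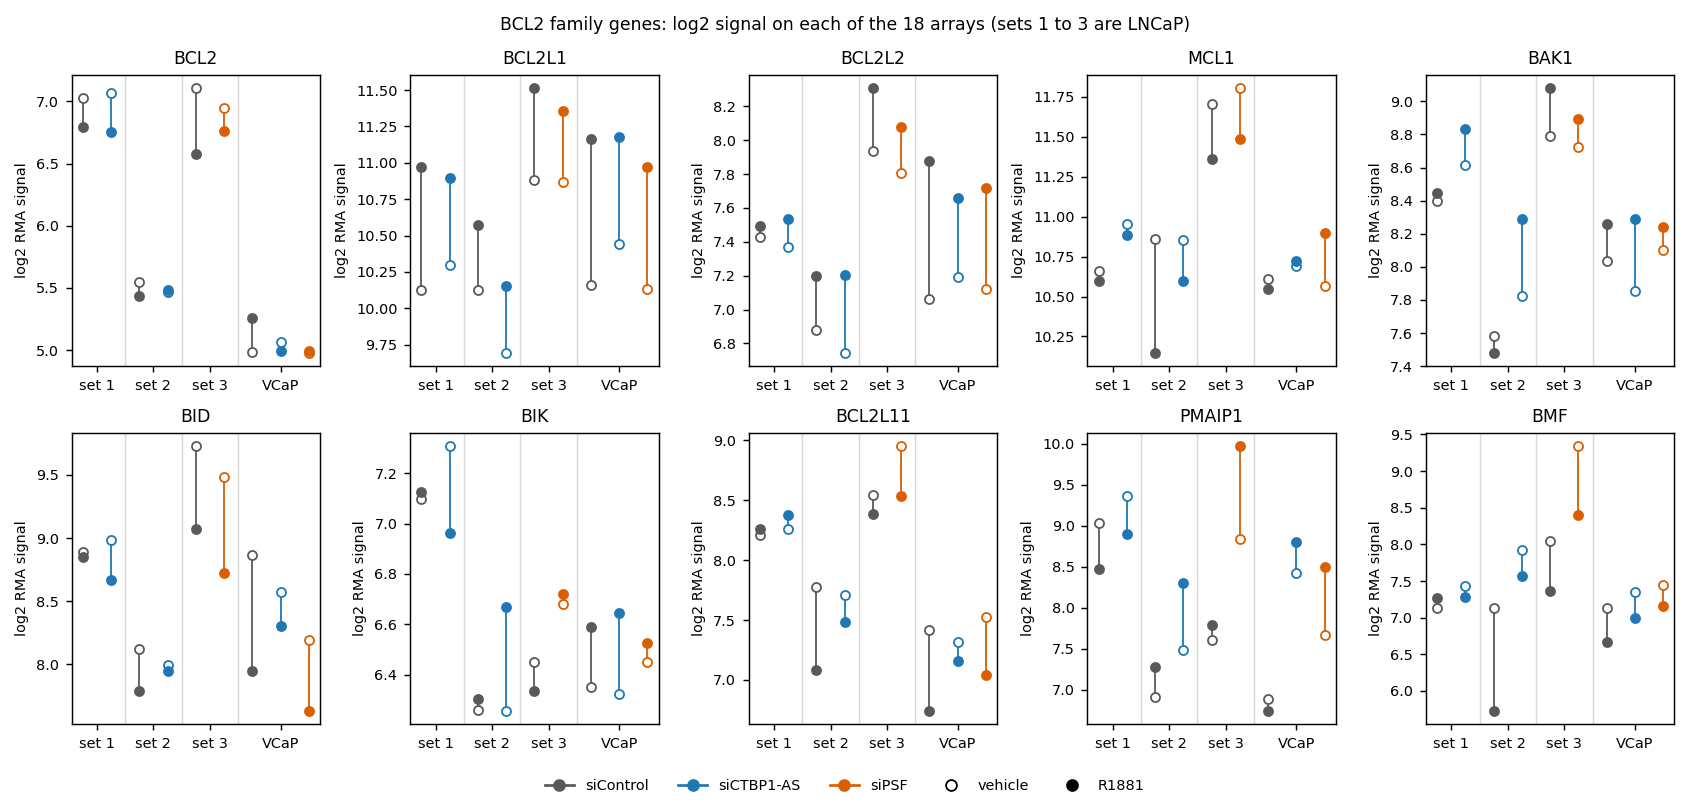
Log2 RMA signal of the 10 BCL2 family genes (vertical axis, a separate scale for each gene) on each of the 18 arrays, by set (horizontal axis). Open points are vehicle and filled points R1881, joined within a set and siRNA, and colour gives the siRNA. BCL2L1 and BCL2L2 are higher with R1881 in every joined pair. PMAIP1 is higher on every knockdown array than on the siControl array of the same set and treatment.

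The response to R1881 was measured in 9 pairs, each an R1881 array and the vehicle array of the same set and siRNA, 6 in LNCaP and 3 in VCaP. BCL2L1 and BCL2L2, both survival genes, rose in both lines, while BID fell in both lines. MCL1 and BMF fell in LNCaP, and BCL2L11 fell in VCaP. In LNCaP limma called 5 of the 10 members, 2 higher and 3 lower, where 18.3% of all 13813 tested genes were called. In VCaP it called 4 of 10, 2 higher and 2 lower, where 29.7% of all genes were called. The LNCaP count lay above that share and the VCaP count nearer to it, with only 10 members to count. The members were chosen with earlier results of these data known, so these counts do not test the family against the share. The median log2 change of the members was -0.105 in LNCaP and 0.156 in VCaP, against -0.012 and 0.008 over all genes tested.

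BCL2L1 had the firmest R1881 response of the family. In LNCaP siControl its signal went from 10.13 in vehicle to 10.97 in R1881 in set 1, from 10.12 to 10.57 in set 2 and from 10.88 to 11.52 in set 3. With siCTBP1-AS it went from 10.3 to 10.89 in set 1 and from 9.69 to 10.15 in set 2, and with siPSF from 10.87 to 11.35 in set 3. In VCaP it went from 10.16 to 11.17 with siControl, from 10.44 to 11.18 with siCTBP1-AS and from 10.13 to 10.97 with siPSF. Within each of the 4 sets every R1881 array stood above every vehicle array. BCL2L1 thus rose 1.49-fold in LNCaP (log2 0.58, SE 0.07, adjusted p = 0.000132, higher in 6 of 6 pairs) and 1.82-fold in VCaP (log2 0.86, SE 0.09, adjusted p = 8.03e-05, higher in 3 of 3 pairs). It was still called in each line whichever set was left out, where the comparison could then be fitted. The LNCaP response was smaller than that of VCaP by 0.28 (SE 0.11), which did not pass over all genes (adjusted p = 0.14 by limma).

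BCL2L2, whose protein is a close relative of BCL-XL, followed with a smaller change. Its signal went from 7.43 to 7.49, 6.88 to 7.2 and 7.94 to 8.31 in siControl of LNCaP sets 1, 2 and 3, from vehicle to R1881. The knockdown pairs of LNCaP differed by 0.16 and 0.46 with siCTBP1-AS in sets 1 and 2 and by 0.27 with siPSF. In VCaP it went from 7.06 to 7.88 with siControl, from 7.19 to 7.66 with siCTBP1-AS and from 7.12 to 7.72 with siPSF. The smallest of these 9 differences, 0.06, was that of siControl in set 1, and all 9 lay above 0. BCL2L2 rose by 0.27 in LNCaP (SE 0.07, adjusted p = 0.0153) and by 0.63 in VCaP (SE 0.1, adjusted p = 0.000643). The LNCaP call was lost without set 2 (0.22, adjusted p = 0.127) and without set 3 (0.25, adjusted p = 0.13). The line difference of -0.35 (SE 0.12) did not pass (adjusted p = 0.0751 by limma).

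MCL1 and BCL2, the other survival genes, did not share this rise. MCL1 went from 10.66 to 10.6, from 10.86 to 10.15 and from 11.71 to 11.36 in siControl of LNCaP sets 1, 2 and 3. Its knockdown pairs in LNCaP differed by -0.07, -0.25 and -0.32, so all 6 pairs lay below 0. MCL1 fell by 0.3 in LNCaP (SE 0.09, adjusted p = 0.0344), a call lost without set 2 (-0.2, adjusted p = 0.184), set 3 (-0.28, adjusted p = 0.193) or VCaP (-0.3, adjusted p = 0.0518), the last of which enters only the spread. In VCaP the MCL1 differences were -0.06, 0.03 and 0.33, with a change of 0.1 (SE 0.12, adjusted p = 0.584). The 3 VCaP differences all lay above those of LNCaP, the nearest ones being almost equal, and the line difference of -0.4 (SE 0.15) did not pass (adjusted p = 0.115 by limma).

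BCL2 was dim, at 4.98 to 5.26 in VCaP, below the median of those arrays, and at 5.44 to 7.11 in LNCaP. RMA signals near the low end understate differences. Its change was -0.23 in LNCaP (SE 0.08, adjusted p = 0.059, lower in 5 of 6 pairs) and 0.07 in VCaP (SE 0.11, adjusted p = 0.655). The LNCaP change passed when set 2 was left out (-0.32, adjusted p = 0.0408). BAK1, the pore-forming member, changed by 0.18 in LNCaP (SE 0.08, adjusted p = 0.122, higher in 5 of 6 pairs) and by 0.26 in VCaP (SE 0.11, adjusted p = 0.0829, higher in 3 of 3). The VCaP change passed after quantile normalization (0.28, adjusted p = 0.0494) and without set 2 (0.26, adjusted p = 0.0426).

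Of the 5 BH3-only genes, BID fell in both lines. BID links death receptors to mitochondria once caspase-8 has cut it. It went from 8.89 to 8.85, from 8.12 to 7.79 and from 9.73 to 9.08 in siControl of LNCaP sets 1, 2 and 3. With siCTBP1-AS it went from 8.98 to 8.67 in set 1 and from 8 to 7.95 in set 2, and with siPSF from 9.48 to 8.73 in set 3. Every pair lay below 0, and the drops in set 3 were the largest in LNCaP. In VCaP BID went from 8.86 to 7.95 with siControl, from 8.57 to 8.31 with siCTBP1-AS and from 8.19 to 7.63 with siPSF. BID fell by 0.36 in LNCaP (SE 0.11, adjusted p = 0.0387) and by 0.58 in VCaP (SE 0.15, adjusted p = 0.0141). Without set 3 the LNCaP change was -0.19 (adjusted p = 0.351) and without set 2 it was -0.44 (adjusted p = 0.0606).

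BMF, a BH3-only gene known to respond to loss of attachment, varied widely between pairs under R1881, from -1.4 to 0.13. Its siControl signal went from 7.14 to 7.27 in LNCaP set 1, from 7.13 to 5.72 in set 2 and from 8.05 to 7.37 in set 3. With knockdown it differed by -0.15 in set 1, -0.35 in set 2 and -0.94 in set 3, and in VCaP by -0.46, -0.36 and -0.28 with siControl, siCTBP1-AS and siPSF. BMF was thus lower with R1881 in 8 of 9 pairs, set 1 siControl being the exception. BMF fell by 0.57 in LNCaP (SE 0.16, adjusted p = 0.0284), a call lost without set 2 (-0.41, adjusted p = 0.123), set 3 (-0.44, adjusted p = 0.224) or VCaP (-0.57, adjusted p = 0.0627). Its change in VCaP was -0.37 (SE 0.22, adjusted p = 0.249).

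BCL2L11, which encodes BIM, the BH3-only protein that binds every survival member, fell in VCaP by 0.44 (SE 0.15, adjusted p = 0.0409, lower in 3 of 3 pairs). In VCaP its signal went from 7.42 to 6.74 with siControl, from 7.32 to 7.16 with siCTBP1-AS and from 7.53 to 7.05 with siPSF. The VCaP call was lost without set 3 (adjusted p = 0.0604), which enters only the spread. In LNCaP it was -0.22 (SE 0.1, adjusted p = 0.172), with values of 0.05 and 0.12 in set 1, -0.69 and -0.22 in set 2 and -0.15 and -0.42 in set 3. The set 1 pairs thus lay on the other side of 0 from the rest, and without set 1 the LNCaP change passed (-0.37, adjusted p = 0.0445). BIK changed by 0.01 in LNCaP (SE 0.08, adjusted p = 0.953) and by 0.21 in VCaP (SE 0.12, adjusted p = 0.209).

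PMAIP1 had no R1881 change past the test, at 0.25 in LNCaP (SE 0.21, adjusted p = 0.459) and 0.35 in VCaP (SE 0.29, adjusted p = 0.411). Its pairs ran from -0.56 to 1.14. Both set 1 pairs lay below 0, at -0.56 with siControl and -0.45 with siCTBP1-AS, and without set 1 the LNCaP change was 0.63 (adjusted p = 0.0363). The siPSF pairs were the highest, at 1.14 in LNCaP and 0.83 in VCaP.

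**Figure D2:**
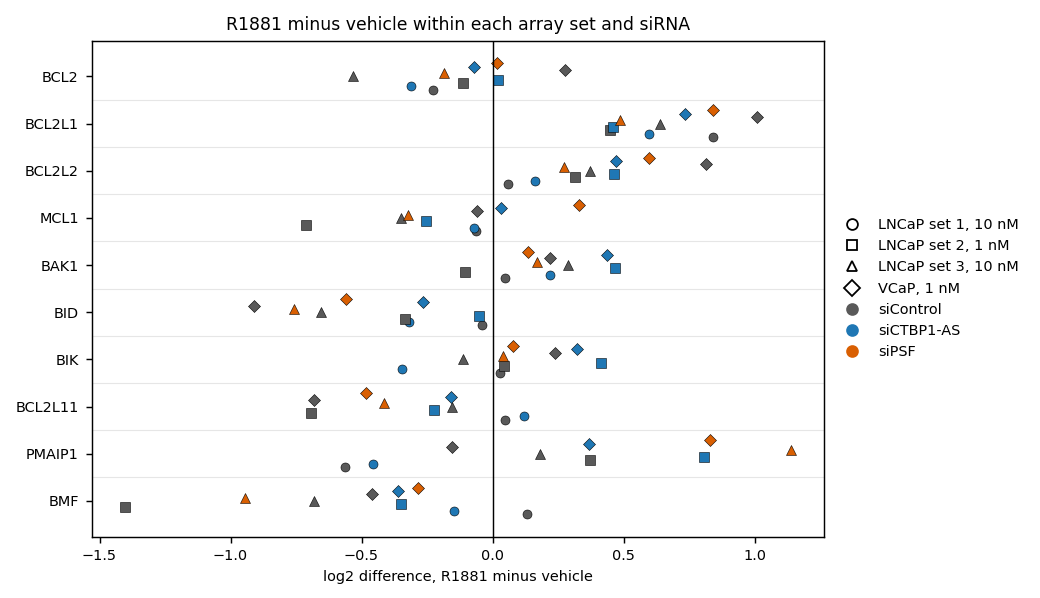
R1881 minus vehicle (log2, horizontal axis) for each BCL2 family gene in the 9 pairs of array set and siRNA. Shape gives the set and R1881 dose, colour the siRNA. All 9 points lie above 0 for BCL2L1 (0.45 to 1.01) and BCL2L2 (0.06 to 0.81) and below 0 for BID (-0.91 to -0.04).

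R1881 doses differed between the lines in part, since LNCaP sets 1 and 3 received 10 nM and set 2 and VCaP 1 nM. The 1 nM LNCaP pairs of set 2 gave 0.45 and 0.46 for BCL2L1, 0.32 and 0.46 for BCL2L2, and -0.33 and -0.05 for BID. Of the 10 members 0 passed the limma test of a line difference in R1881 response, where 11.6% of all genes were called. At an unadjusted p under 0.05 stood 4 of them, BCL2, BCL2L1, BCL2L2 and MCL1, beside 3592 of all 13813 genes tested.

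The R1881 response in LNCaP siControl alone, 3 arrays against 3 without pairing, called 0 of 10 members, with 0 at an unadjusted p under 0.05. In that fit 0.253% of all genes were called, and 322 of 13813 had an unadjusted p under 0.05. Level differences between the sets entered the spread. The SD over the 3 vehicle arrays was 0.43 for BCL2L1, 0.88 for BCL2 and 1.08 for PMAIP1. Replicate numbers pair these arrays, and with the replicate number as a block BCL2L1 was the 1 member called (0.64, adjusted p = 0.0313 by limma).

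Other genes of the pathway were read against the same background, 18.3% of all genes called in LNCaP and 29.7% in VCaP. Among 9 further BCL2 family genes tested, HRK, a BH3-only gene, fell by 0.3 in LNCaP (adjusted p = 0.0253), and BCL2L13 fell by 0.43 in VCaP (adjusted p = 0.0033). Of 6 apoptosome and caspase genes 0 passed in LNCaP and 2 fell in VCaP, CASP2 by 0.42 (adjusted p = 0.0192) and APAF1, the apoptosome scaffold, by 0.32 (adjusted p = 0.0169). Of 6 genes of inhibitors of apoptosis and their antagonists 0 passed in either line. In the death receptor pathway 3 of 8 rose and 1 fell in LNCaP. FAS, a death receptor gene, fell by 0.5 in LNCaP (adjusted p = 0.00128) and by 1.28 in VCaP (adjusted p = 2.06e-05). TRADD rose by 0.53 (adjusted p = 0.000922) and TNFRSF10B by 0.66 (adjusted p = 0.00252) in LNCaP, and FAS was the 1 of 8 that passed in VCaP.

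Targets of factors known to act on BH3-only genes were read in the same pairs, where again 18.3% of all genes were called in LNCaP and 29.7% in VCaP. Of 10 p53 targets 4 fell and 0 rose in LNCaP, among them SESN1 by 0.96 (adjusted p = 0.000803), TP53INP1 by 0.75 (adjusted p = 0.00203) and MDM2 by 0.3 (adjusted p = 0.00761). In VCaP 1 fell, SESN1 by 0.83 (adjusted p = 0.00942), and 2 rose, CDKN1A by 0.7 (adjusted p = 0.00683) and RRM2B by 0.27 (adjusted p = 0.0317). Of 10 targets of the stress factors ATF4 and CHOP 4 fell in LNCaP, among them PSAT1 by 0.72 (adjusted p = 0.00385) and DDIT4 by 0.56 (adjusted p = 0.00369), and 1 rose in VCaP, DDIT4 by 0.49 (adjusted p = 0.0285). Of 3 FOXO factor genes 0 passed in either line.

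Knockdown effects were measured in 10 differences, each a knockdown array minus the siControl array of its set and treatment. PMAIP1, whose protein NOXA binds MCL1 above all, rose with both siRNAs and was the 1 member called in each comparison over both lines. BMF, which was above siControl in all 10 differences, did not pass. The survival genes BCL2, BCL2L1, BCL2L2 and MCL1 were called in 0 of the comparisons of either knockdown. With siCTBP1-AS 1 of 10 members was called over both lines, where 1.49% of all genes were called, and with siPSF 1 of 10, where 1.65% were. The VCaP differences of the 2 knockdowns share their siControl arrays.

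In vehicle, the PMAIP1 signal was 9.36 with siCTBP1-AS against 9.04 with siControl in set 1, 7.49 against 6.91 in set 2 and 8.43 against 6.89 in VCaP. In R1881 it was 8.9 against 8.47, 8.3 against 7.28 and 8.8 against 6.74. With siPSF it was 8.83 against 7.6 in vehicle and 9.97 against 7.79 in R1881 in LNCaP, and 7.67 against 6.89 and 8.5 against 6.74 in VCaP. Every knockdown array stood above its siControl array, by the least in set 1 (0.32 and 0.43) and by the most in set 3 with R1881 (2.19). In set 1 the vehicle siControl array, at 9.04, lay above the R1881 array with siCTBP1-AS, so the groups overlap there once treatments are mixed. In sets 2 and 3 and in VCaP they did not overlap.

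Over both lines PMAIP1 rose 2.09-fold with siCTBP1-AS (log2 1.07, SE 0.23, adjusted p = 0.0469, higher in 6 of 6 differences) and 2.37-fold with siPSF (log2 1.25, SE 0.28, adjusted p = 0.0448, higher in 4 of 4). Both calls lie close to the threshold of 0.05, and both were lost with no replicate block. Of 11 alternatives, the siCTBP1-AS call was kept in 4 and the siPSF call in 6. Leaving out set 3 leaves only the sets that hold siCTBP1-AS. The siCTBP1-AS call was lost without set 2 (1.19, adjusted p = 0.102), set 3 (0.99, adjusted p = 0.0643) or VCaP (0.59, adjusted p = 0.125), without the filter on dim genes (adjusted p = 0.054) and with product terms (adjusted p = 0.0618). The siPSF call was lost without set 3 (0.86, adjusted p = 0.3) or VCaP (1.71, adjusted p = 0.0572), without the filter (adjusted p = 0.051) and with product terms (adjusted p = 0.062).

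With a separate effect for each line, PMAIP1 was called in VCaP with siCTBP1-AS, at 3.47-fold (log2 1.8, SE 0.26, adjusted p = 0.0262), where 0.391% of all genes were called. It was also called with siPSF, in LNCaP at 1.71 (SE 0.26, adjusted p = 0.0164, background 1.11%) and in VCaP at 1.27 (SE 0.26, adjusted p = 0.0332, background 2.4%). Each of these calls rests on the vehicle and R1881 differences of a single set. Their SE comes from the spread over all sets, so it does not measure how the knockdown repeats in that line. The LNCaP call was lost without the VCaP arrays, which set part of its spread (adjusted p = 0.0572), and the VCaP calls could not be fitted without them. In LNCaP siCTBP1-AS gave 0.59 (SE 0.18, adjusted p = 0.083), which did not pass. The LNCaP effect of siCTBP1-AS was 1.21 below that of VCaP (SE 0.32), a difference that did not pass over all genes (adjusted p = 0.165 by limma, background 0.376%). Line cannot be told apart here from array set, nor fully from the "#2" mark, which set 1 lacks, or from R1881 dose. For siPSF the lines differed by 0.44 (SE 0.37, adjusted p = 0.714, background 0.804%). In VCaP siCTBP1-AS stood 0.53 above siPSF (SE 0.26, adjusted p = 0.419, background 1.45%).

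**Figure D3:**
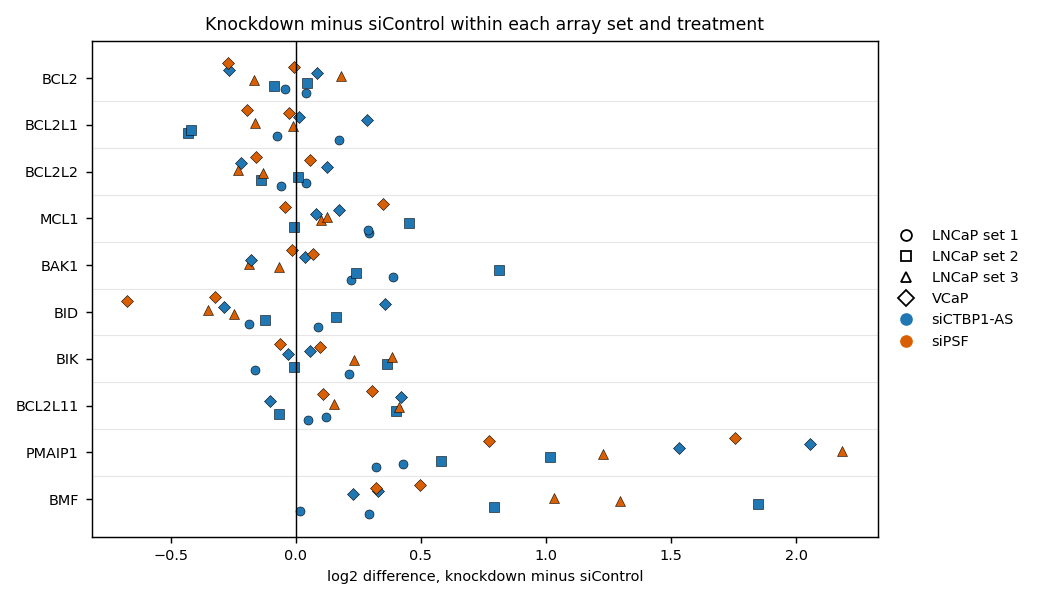
Knockdown minus siControl (log2, horizontal axis) for each BCL2 family gene in the 10 differences within array set and treatment. Shape gives the set and colour the siRNA. All 10 points lie above 0 for PMAIP1 (0.32 to 2.19) and for BMF (0.02 to 1.85).

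BMF was 7.43 and 7.28 with siCTBP1-AS, in vehicle and R1881, against 7.14 and 7.27 with siControl in set 1. In set 2 it was 7.92 and 7.57 against 7.13 and 5.72, and in VCaP 7.35 and 7 against 7.13 and 6.67. With siPSF it was 9.34 and 8.4 against 8.05 and 7.37 in LNCaP, and 7.45 and 7.16 against 7.13 and 6.67 in VCaP. Set 2 with R1881 gave the largest difference, 1.85, and set 1 with R1881 the smallest, 0.02. Over both lines the change was 0.64 with siCTBP1-AS (SE 0.19, adjusted p = 0.105) and 0.84 with siPSF (SE 0.23, adjusted p = 0.106). The siPSF change passed on set 3 and VCaP alone (0.79, adjusted p = 0.0391) and without set 2 (0.74, adjusted p = 0.0243). In LNCaP BMF changed by 0.74 with siCTBP1-AS (adjusted p = 0.0817) and by 1.16 with siPSF (adjusted p = 0.123). The first passed without set 1 (1.32, adjusted p = 0.00285), and the second without set 1 (adjusted p = 0.0235) or without set 2 (adjusted p = 0.00194). The siPSF effect was 0.75 higher in LNCaP than in VCaP (adjusted p = 0.576), a difference that passed without set 2 (adjusted p = 0.0337).

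BAK1 was the 1 of 10 members called with siCTBP1-AS in LNCaP, where 6.6% of all genes were called. It stood at 8.62 and 8.83 in vehicle and R1881 against 8.4 and 8.44 with siControl in set 1, and at 7.83 and 8.29 against 7.58 and 7.48 in set 2. All 4 knockdown arrays lay above both siControl arrays of their set. BAK1 rose 1.33-fold (log2 0.42, SE 0.11, adjusted p = 0.0439), a call lost without the filter on dim genes (adjusted p = 0.0522) and without set 2 (0.31, adjusted p = 0.152), set 3 (adjusted p = 0.0747) or VCaP (adjusted p = 0.108). In VCaP siCTBP1-AS gave -0.07 (SE 0.15, adjusted p = 0.922), and the line difference of 0.49 did not pass (SE 0.18, adjusted p = 0.3 by limma). With siPSF BAK1 changed by -0.13 in LNCaP and 0.03 in VCaP (adjusted p = 0.769 and 0.969).

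BID was lower with siPSF in 4 of 4 differences, from -0.67 to -0.25. In LNCaP it was 9.48 and 8.73 in vehicle and R1881 against 9.73 and 9.08, and in VCaP 8.19 and 7.63 against 8.86 and 7.95. The change over both lines, -0.42 (SE 0.1), did not pass (adjusted p = 0.0674). With siCTBP1-AS BID changed by 0.02 (SE 0.09, adjusted p = 0.918), with 3 of 6 differences above 0. BCL2L11 was higher with siPSF in 4 of 4 differences, from 0.11 to 0.41, with a change of 0.23 (SE 0.1, adjusted p = 0.296). MCL1 changed by 0.21 with siCTBP1-AS (SE 0.08, adjusted p = 0.16, higher in 5 of 6) and by 0.16 with siPSF (SE 0.09, adjusted p = 0.497). The changes of BCL2, BCL2L1, BCL2L2 and BIK over both lines lay between -0.16 and 0.16, with adjusted p of 0.512 to 0.871.

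BCL2L1 in LNCaP changed by -0.19 with siCTBP1-AS (adjusted p = 0.322). Without set 1 it was -0.43 (adjusted p = 0.0218), and its difference from VCaP then passed as well (-0.58, adjusted p = 0.0426), against -0.34 with all sets (adjusted p = 0.473). The set 2 differences were -0.43 in vehicle and -0.42 in R1881, and those of set 1 0.17 and -0.08.

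The last question was whether either knockdown changed the R1881 response. By limma 0 of 10 members passed with siCTBP1-AS, and 0 with siPSF, where the share of all genes called was 0% in both. At an unadjusted p under 0.05 stood 482 and 268 of the 13813 genes, and 0 members. A product term is the R1881 response with knockdown minus that with siControl. PMAIP1 had the largest among the members, 1.04 with siPSF (SE 0.54, adjusted p = 1). Its R1881 difference was 0.18 with siControl and 1.14 with siPSF in LNCaP, and -0.15 and 0.83 in VCaP. For BCL2L1 the product terms were -0.16 with siCTBP1-AS (SE 0.18, adjusted p = 0.996) and -0.15 with siPSF (SE 0.21, adjusted p = 1).

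Lists of 3 stress pathways were read in the same differences as PMAIP1, and their part in its change was not tested. The share of all genes called was 6.6% and 0.391% with siCTBP1-AS in LNCaP and VCaP, and 1.11% and 2.4% with siPSF. The interferon response list, 12 genes, had medians of 2.21 and 3.83 in set 1, 2.34 and 2.54 in set 2 and 1.35 and 1.34 in VCaP with siCTBP1-AS, in vehicle and R1881. With siPSF it had medians of 2.15 and 2.5 in VCaP and of 0 and 0.25 in LNCaP. The highest median was that of set 1 with R1881, 3.83, and the lowest were those with siPSF in LNCaP. In vehicle set 2, at 2.34, lay above set 1, at 2.21. In the tests 9 of 12 interferon genes rose with siCTBP1-AS in LNCaP, 2 of 12 with it in VCaP, 10 of 12 with siPSF in VCaP and 0 of 12 with siPSF in LNCaP. Among them MX1, an antiviral GTPase gene, rose by 2.98 (adjusted p = 3.13e-05) and 3.99 (adjusted p = 1.55e-06) in VCaP with siCTBP1-AS and siPSF.

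The list of ATF4 and CHOP targets, 10 genes of the response to amino acid and endoplasmic reticulum stress, was read in the same way. Its medians with siCTBP1-AS were -0.97 and -0.88 in set 1, -0.63 and -0.07 in set 2 and 0.68 and 0.94 in VCaP, in vehicle and R1881. With siPSF they were 0.43 and 1.05 in LNCaP and 0.14 and 0.43 in VCaP. The medians were below 0 in sets 1 and 2 and above 0 in set 3 and VCaP. In the tests 5 of 10 fell with siCTBP1-AS in LNCaP, among them STC2 by 0.95 (adjusted p = 0.018), PSAT1 by 0.97 (adjusted p = 0.0236) and ATF4 itself by 0.44 (adjusted p = 0.0314). In VCaP 2 of 10 rose, CHAC1, a glutathione-degrading enzyme gene, by 2.28 and ATF3 by 0.92 (adjusted p = 0.0361 each). With siPSF 0 of 10 passed in either line, with medians of 0.77 in LNCaP and 0.34 in VCaP.

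The p53 target list, 10 genes, stayed between -0.25 and 0.16 in its medians over the 10 differences. With siCTBP1-AS 1 fell in LNCaP, CCNG1 by 0.48 (adjusted p = 0.0141), and 1 rose in VCaP, GDF15 by 1.43 (adjusted p = 0.0032). With siPSF 0 of 10 passed in either line.

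**Figure D4:**
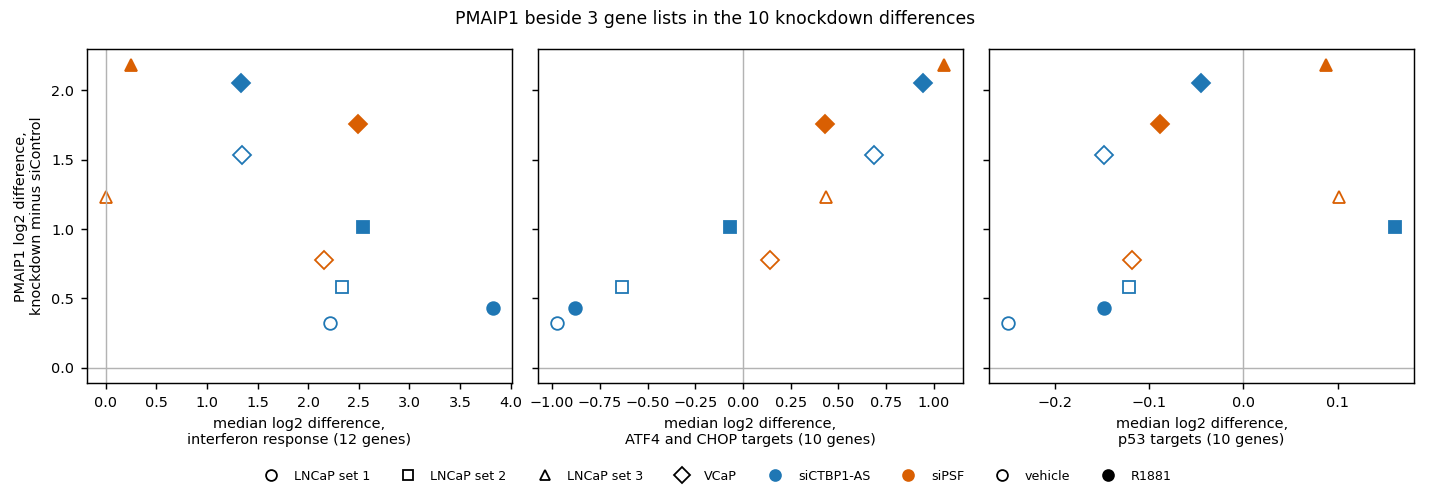
PMAIP1 (log2 knockdown minus siControl, vertical axis) against the median log2 difference of 3 gene lists (horizontal axes) in the 10 knockdown differences. Shape gives the set, colour the siRNA, open points vehicle and filled points R1881, and VCaP points of one treatment share a siControl array. PMAIP1 runs from 0.32 to 2.19, and the medians run from 0 to 3.83 for the interferon list, from -0.97 to 1.05 for the ATF4 and CHOP list and from -0.25 to 0.16 for the p53 list.

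Beyond the members, death pathway genes changed with knockdown in LNCaP under siCTBP1-AS, where 6.6% of all genes were called. TNFSF10, which encodes the death ligand TRAIL, rose by 2.56 (SE 0.47, adjusted p = 0.0138) and FAS by 0.77 (adjusted p = 0.00565), while TNFRSF10B, a TRAIL receptor gene, fell by 0.65 (adjusted p = 0.0329) and CASP2 by 0.67 (adjusted p = 0.0388). HUWE1, which encodes a ubiquitin ligase of MCL1, fell by 0.4 (adjusted p = 0.0174) as 1 of 4 genes of MCL1 turnover. The share of all genes called was 0.391% with siCTBP1-AS in VCaP and, with siPSF, 1.11% in LNCaP and 2.4% in VCaP. In these 3 comparisons 0 genes passed in the following lists, a count near those shares. The lists held 9 further BCL2 family, 6 apoptosome and caspase, 6 inhibitor of apoptosis, 8 death receptor, 3 FOXO and 4 MCL1 turnover genes. The leukocyte markers had a mean signal of 4.58 to 6.55 over 5 genes with siCTBP1-AS in LNCaP, against 4.41 to 5.62 with siControl, and 1 of the 2 tested rose, CD68. CD68 reached 10.65 and LYZ 7.44 in LNCaP, while PTPRC was at most 3.8. Their part in these changes was not tested.

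The members were also compared by pattern, with each array's value taken from its set mean. The SD over the 18 arrays was 0.72 for PMAIP1, 0.56 for BMF, 0.38 for BCL2L1 and 0.31 for BID, and 0.13 for BCL2, the least variable. The genes most like PMAIP1 were DUSP8, ARL2BP and ZDHHC18 (Pearson r of 0.9, 0.89 and 0.87 over 18 arrays), and those most like BMF were RBFOX2, PNISR and NET1 (0.94, 0.92 and 0.91). For BCL2L1 they were UAP1, ASRGL1 and SOCS2 (0.96, 0.95 and 0.94), and for BID CLYBL, NMNAT3 and PKP4 (0.94, 0.92 and 0.91). Within the family BCL2L1 and BCL2L2 correlated at 0.87, BCL2L11 and BMF at 0.77, MCL1 and BMF at 0.72 and BCL2L2 and BCL2L11 at -0.84. These values describe arrays that share 4 sets and the same treatments.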

How the data were processed

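Total RNA of 18 samples was hybridised to Affymetrix gene-level arrays. The deposited values are log2 signals that the authors made with RMA in Affymetrix Expression Console 1.1.1, per the submitters' processing notes; which arrays were normalized together, and the genome build, are not given in the sources used here. RMA compresses low signals. Of 33297 transcript clusters, 19460 name 1 gene, 1754 several and 12083 none. The cluster with the highest mean stood for each of 18418 genes (769 had several), and the dimmest 25% were left out, which left 13813 genes and all 10 members. Models were fitted with limma 3.58.1 in R 4.3.3, with Benjamini-Hochberg adjustment over all genes of a fit and a threshold of 0.05.

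R1881 effects over all siRNAs used the set and siRNA as a block, and knockdown effects the set and treatment. R1881 in LNCaP siControl was fitted without a block; there, deviations of same-numbered arrays correlated at 0.785, 0.843 and 0.695, against -0.642 to -0.081 for other numbers, so the numbers pair the samples. The 15 comparisons were recomputed with other normalization, filter, cluster choice, prior, blocks and with each set left out. Models were run on simulated data with independent noise on each array, so arrays that vary together were not covered.

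All members were named in the text, with listed genes that passed (at most 3 of a list, by p), the target checks and, for the 4 members of largest SD, the 3 genes most like each. Members and lists were chosen with earlier results of these data known. Upstream sequences came from RefSeq windows of GRCh38.p14; no whole genome and no protein sequences were used.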

Additional observations from a re-analysis of the deposited data

Results flagged for a closer look

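None of the 10 members differed between the lines past the test. Listed genes named here did, by limma over all genes. For R1881, LNCaP minus VCaP was -1.05 for DDIT4, 0.77 for FAS, -0.62 for MX1, -1.35 for RIGI, -0.56 for IRF1, 0.37 for BCL2L13, -0.87 for CDKN1A and -0.4 for RRM2B (log2). For siCTBP1-AS it was -2.05 for SESN2, -2.91 for CHAC1, -1.93 for STC2, -2.58 for MX1, 2.45 for IFIH1 and -1.55 for GDF15. For siPSF it was -3.94 for MX1, -4.76 for IFIT1 and -3.48 for RSAD2. Line cannot be told apart from array set or serum percentage in any of these comparisons, since every VCaP array is in set 4. Line and R1881 dose differ together in part, and fully for siPSF. Line and the "#2" mark differ together in part for siCTBP1-AS. No group held enough arrays for a search for single deviating samples.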

How the results depend on the processing

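Of 1290 member values recomputed under the alternatives, 1235 kept their side of the threshold, 14 gained and 41 lost a call. The sign turned in 56 values, none of them called in either fit, and in 0 called values. With no replicate block, members called fell to 0 in every comparison that had called any, and genes called were 190 for R1881 in LNCaP, 130 in VCaP, 5 for their difference, 0 for siCTBP1-AS over both lines, 5 for siPSF over both lines, 7 for siCTBP1-AS in LNCaP and 0 in the other line-specific knockdown comparisons. With the replicate block, R1881 in LNCaP siControl called 1 member and 734 genes; it called 77 genes after quantile normalization, 108 with a trended robust prior, and 0 to 20 without one replicate. Over both lines, siCTBP1-AS called 0 members with no filter, with product terms or in its own sets alone (105, 78 and 119 genes) and 132 genes after quantile normalization; siPSF called 0 members with no filter or product terms and 2 in its own sets alone. In LNCaP siCTBP1-AS called 0 members with no filter, and in VCaP 34 genes after quantile normalization.

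Leaving out one set at a time, members called ranged from 1 to 7 for R1881 in LNCaP, 0 to 1 for siCTBP1-AS and 0 to 2 for siPSF over both lines, 0 to 3 for siCTBP1-AS and 0 to 2 for siPSF in LNCaP, and 0 to 1 for each line difference of knockdown. Genes called ranged from 1114 to 2351 for R1881 in LNCaP, 1015 to 1473 for its line difference, 71 to 233 for siCTBP1-AS and 2 to 403 for siPSF over both lines, 233 to 2940 and 12 to 327 for siCTBP1-AS in LNCaP and VCaP, 2 to 764 and 198 to 973 for siPSF in LNCaP and VCaP, 7 to 1486 and 334 to 550 for the line differences of siCTBP1-AS and siPSF, and 120 to 730 for siCTBP1-AS minus siPSF in VCaP. The causes were not tested. Comparisons that need an omitted set could not be fitted without it. The dim signal of BCL2 limits what its values show.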
